A study of Homo sapiens with 8 samples.

Results

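The histone genes described here are the protein-coding genes whose symbols begin with the name of a linker or core histone family (H1, H2A, H2B, H3, H4 or MACROH2A), and 70 of the 17010 genes in the deposited table met that rule. They split into 57 replication-dependent genes and 13 variant genes. PC3, an established human prostate cancer cell line, was grown in 3D culture in 24-well plates in medium with 3% serum, and RNA-seq libraries were made from 4 groups, 2 for each. In the first group pladienolide B was given at 0.5 µM for 24 h, and its vehicle group is labelled DMSO (dimethyl sulfoxide), for which no time is given. The other arm received, by reverse transfection and for 72 h, either an siRNA (small interfering RNA) to SF3B2 or a control siRNA. SF3B2 belongs to SF3b, which sits in the U2 snRNP (small nuclear ribonucleoprotein) and holds the branch point of introns, and pladienolide B is a macrolide that binds SF3b. All 4 groups come from 1 cell line, and nothing in the labels tells whether the pair of libraries in a group came from different cultures. A p-value here therefore measures the spread of these libraries alone, which may be technical.

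Histones are the proteins around which DNA is wound in chromatin. The replication-dependent genes lie in clusters and make the bulk of core and linker histones while DNA is copied. Their mRNAs are known for lacking introns and, in their usual form, a poly(A) tail: the 3' end is cut just after a short hairpin, the stem-loop, which is bound by SLBP. Variant genes are transcribed outside DNA replication as well, and most make spliced, polyadenylated mRNA. The library kit named in the labels selects polyadenylated RNA, so a replication-dependent gene was counted only as far as its transcripts came through that selection, and how far they did was not tested.

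The hairpins are shown because nearly all genes of the replication-dependent class, and few variants, hold one. Within 150 bases after the stop codon a hairpin of the histone form was found in 56 of 57 replication-dependent genes, the exception being H2BS1, and among variants in H2AX and H3-2. It began 23 to 68 bases after the stop. Over all 19688 such windows of protein-coding genes searched, 73 held a match, or 0.371%, and 15 of these lay outside the histone genes. The hairpins of the genes the results turn on follow from 5' to 3' on each gene's own strand in GRCh38, with the 16 bases of stem and loop in capitals and 5 bases on each side in lower case. They lie at chr6:26055739-26055764 (minus, H1-2), chr6:26124664-26124689 (plus, H2AC6), chr6:26123467-26123492 (minus, H2BC4), chr6:26020927-26020952 (plus, H3C1), chr6:26026896-26026921 (minus, H4C2), chr6:26104312-26104337 (plus, H4C3) and chr11:119094893-119094918 (minus, H2AX).
H1-2: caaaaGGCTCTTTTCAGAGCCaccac
H2AC6: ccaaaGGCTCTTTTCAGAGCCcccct
H2BC4: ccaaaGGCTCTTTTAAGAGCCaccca
H3C1: gcaaaGGCTCTTTTCAGAGCCaccac
H4C2: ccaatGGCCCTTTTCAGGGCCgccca
H4C3: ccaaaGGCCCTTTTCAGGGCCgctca
H2AX: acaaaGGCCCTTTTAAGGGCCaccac

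The form shown for H1-2 was shared by 36 genes of the H1, H2A, H2B and H3 families. A stem opening with GGCCC was found in 12 genes, which were all 11 replication-dependent H4 genes and H2AX. H2BC4 shared its hairpin with 5 others (H1-6, H2BC5, H2BC7, H2BC11 and H2BC12).

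Replication-dependent genes also share promoter letters, searched on both strands of the RefSeq window from 250 bases before to 50 bases after the start (GRCh38.p14), which was available for 53 replication-dependent genes and 11 variants. CCAAT was present in 83% of the replication-dependent windows and 35.7% of all 27305 windows, and TATAAA in 66.0% and 12%. ATTTGCAT, the octamer known from H2B promoters, was present in 41.5% and 1.80%, in 12 of 16 H2B windows and 9 of 14 H2A windows. By contrast CCAAT was found in 1 of 10 H4 windows and the octamer in none of them. Of the 11 variant windows 8 held CCAAT, 5 held TATAAA and 1 held ATTTGCAT, so the first 2 words are not particular to the replication-dependent class. Each word was searched separately, and a match is only a description of the window.

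Of the genes in the clusters, 11 H2A and H2B pairs start back to back with 193 to 247 bases between their 5' ends, so that each pair shares its promoter. The shared promoters of the pair that fell in pladienolide B (H2BC4 and H2AC6) and of the pair H2AC14 and H2BC14, whose members both rose by more than 2 on the log2 scale, are shown because the members of each pair moved together. Each is the 240 bases before the start of the gene on the plus strand, chr6:26123932-26124171 before H2AC6 and chr6:27814782-27815021 before H2BC14 (RefSeq, GRCh38.p14), with each match to the 3 words above, on either strand, in capitals. All 3 words occur in both promoters.
H2BC4 and H2AC6: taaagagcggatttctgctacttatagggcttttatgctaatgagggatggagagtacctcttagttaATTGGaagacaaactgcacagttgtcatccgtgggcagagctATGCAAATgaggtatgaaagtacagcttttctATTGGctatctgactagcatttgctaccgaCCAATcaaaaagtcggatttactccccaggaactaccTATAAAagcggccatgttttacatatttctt
H2AC14 and H2BC14: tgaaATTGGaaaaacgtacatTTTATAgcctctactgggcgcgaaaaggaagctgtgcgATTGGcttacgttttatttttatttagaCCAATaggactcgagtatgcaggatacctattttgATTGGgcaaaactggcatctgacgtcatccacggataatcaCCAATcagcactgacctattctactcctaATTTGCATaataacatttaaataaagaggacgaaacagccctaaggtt

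The 57 replication-dependent genes comprise 43 in the cluster at 6p22, 10 at 1q21, 2 at 1q42 (H2AW and H2BU1) and 2 elsewhere (H2BS1 and H4-16). By family there are 4 H1, 15 H2A, 17 H2B, 10 H3 and 11 H4 genes. In the GENCODE annotation (release 44) 49 of them have only coding transcripts without introns, and 8 have a spliced coding transcript as well (H2AC6, H2BC4, H2BC5, H2BC6, H2BC11, H2BC15, H2BC18 and H3C6). Of the 13 variants, 5 are intron-free, among them H1-10, H2AJ, H2AX and H3-5, 7 have only spliced coding transcripts, and H3-2 has both forms. CENPA, the H3 variant of the centromere, is not matched by the symbol rule.

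Total counts per library ran from 35461248 to 72983584. SF3B2 itself lay at 36.4 and 30.1 CPM (normalised counts on the TMM scale) with its siRNA, against 228 and 228 CPM with the control siRNA (log2 fold change −2.78 ± 0.24, edgeR adjusted p = 0.0513). In the drug arm it lay at 458.5 and 632 CPM in pladienolide B, against 237 and 248 CPM in DMSO. The pladienolide B libraries stand apart, with TMM scaling factors of 0.632 and 0.663 against 1.13 to 1.21 in the other 6. Scaling to the library size alone gave a median log2 fold change of all genes of −0.97 in pladienolide B against DMSO, in place of −0.11, so every change in that comparison is read relative to the median of all genes. The 7 markers of epithelial and PC3 cells were all listed, and their summed level was 538 and 644 TPM (length-normalised transcript abundance) in pladienolide B, against 3965 and 3322 TPM in DMSO. KLK2 and KLK3, which PC3 is known to lack, are not listed. Also not listed are PTPRC and CD3E of leukocytes, VWF, CDH5 and KDR of endothelium, or COL1A2, DCN and PDGFRB of fibroblasts. The other 3 fibroblast markers summed to 5.83 to 36.9 TPM over the 8 libraries and PECAM1 of endothelium lay at 0.356 to 21.8 TPM. CD68 and LYZ of leukocytes summed to 19.4 and 53.3 TPM in pladienolide B and to 88.4 to 147 TPM in the other 6 libraries, and the part of such cells in the results was not tested. In bulk RNA, fewer cells of a type and less RNA per cell cannot be told apart.

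In the 4 control siRNA and DMSO libraries the replication-dependent signal came from few genes. H1-2, a linker histone, had the highest mean level at 521 TPM, followed by H2BC12 at 474, H2AC6 at 395, H2AC19 at 391, H2AC18 at 369 and H2BC21 at 366 TPM. These 6 held 62.8% of the summed replication-dependent TPM. H2AC18 and H2AC19 have identical coding sequences, and their count ratio was 1.06 to 1.07 in all 8 libraries, and whether reads were split between them was not tested. Among variants H3-3B lay at 569 TPM and H3-3A at 224 TPM, the genes of the replacement histone H3.3. H2AZ1, a gene of the H2A.Z variant found at promoters, lay at 199 TPM, MACROH2A1, the H2A variant with a large non-histone domain, at 140 TPM and H1-10 at 108 TPM. The 4 libraries of neighbours in this order overlapped for H2AC6, H2AC19, H2AC18 and H2BC21, whereas H1-2 lay above these 4 genes in every control library. Among variants H3-3A and H2AZ1 overlapped, and H3-3B lay above both.

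In pladienolide B most replication-dependent genes stood higher than in DMSO relative to the median gene. Of 56 tested, 37 rose and 2 fell (edgeR quasi-likelihood test, adjusted p under 0.05), where 32.5% of all 16488 genes tested rose and 35.5% fell. Their median log2 fold change was 1.20, against −0.11 for all genes, and with library-size scaling it was 0.34 against −0.97. H3C15 was left out by the filter on low counts, with 19 and 2 reads in pladienolide B and 4 and 6 reads in DMSO. Under library-size scaling 15 rose and 10 fell, where 20.1% of all genes rose and 51.2% fell. Leaving out a DMSO library reduced the number that rose to 24 (without replicate 1) or 19 (without replicate 2). The cluster at 6p22 had 29 that rose and 2 that fell of 43 (median 1.45), and the 1q21 cluster 5 that rose and 0 that fell of 9 tested (median 0.93). Under library-size scaling 15 rose and 8 fell at 6p22 (median 0.57), whereas at 1q21 0 rose and 2 fell (median 0.07), so none of the 5 rises at 1q21 was called.

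**Figure D1:**
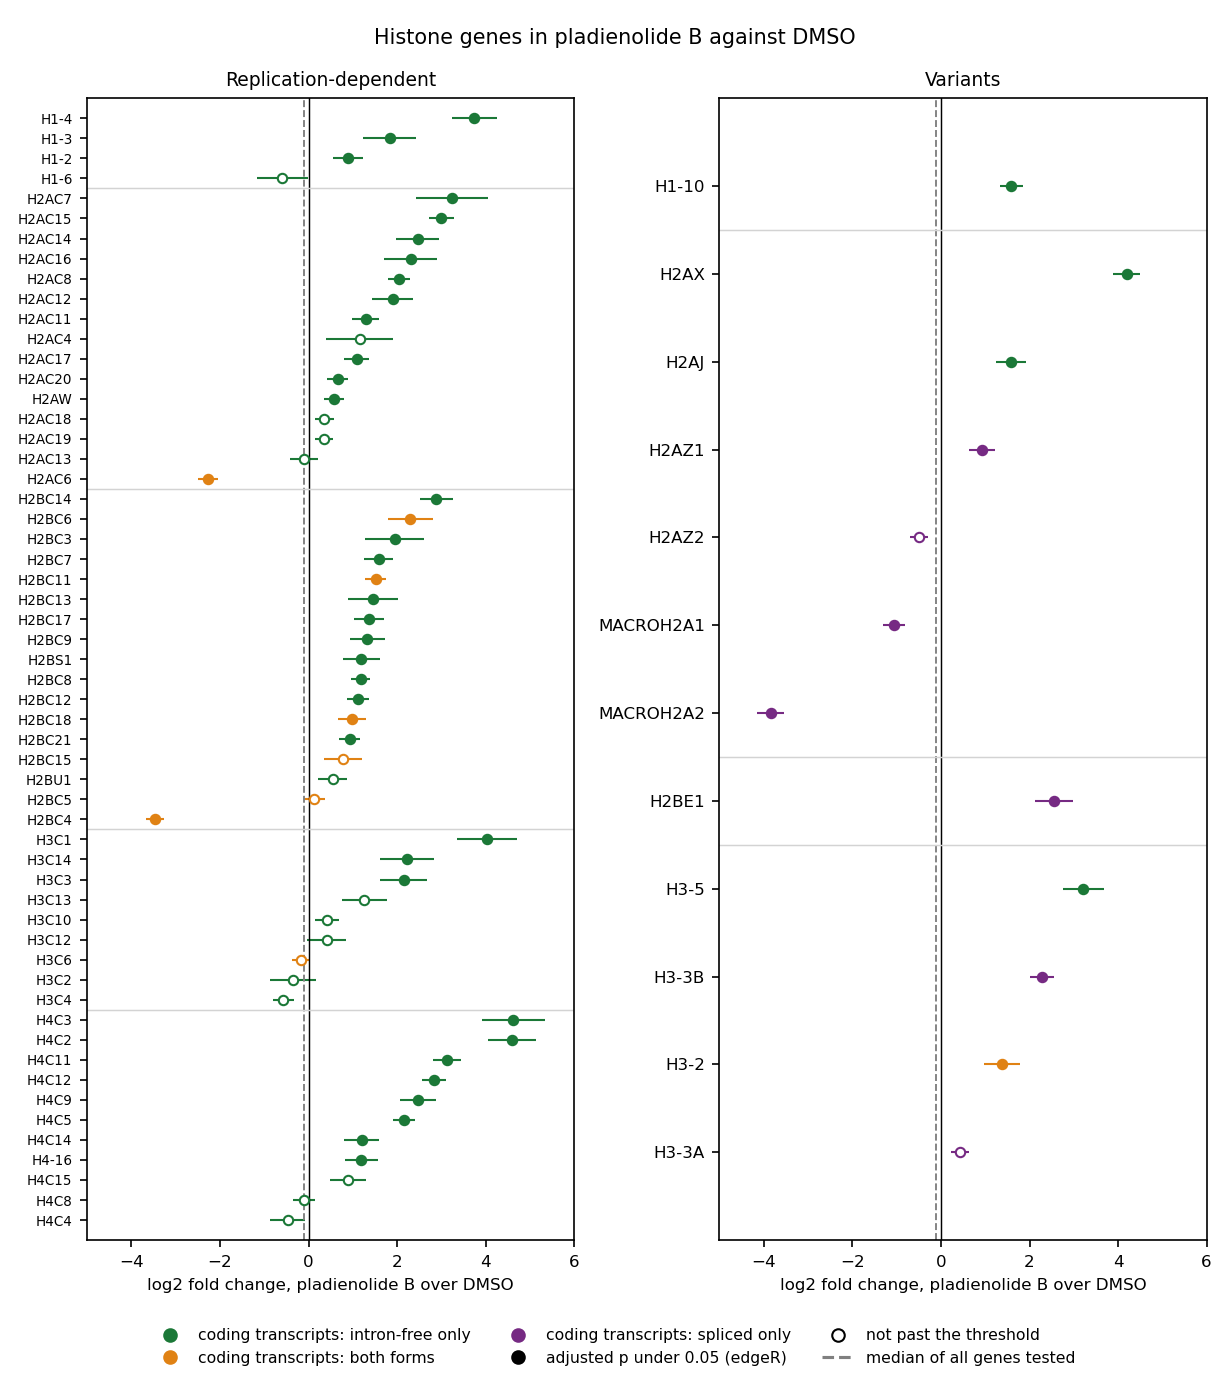
Log2 fold change of pladienolide B over DMSO (x axis, edgeR, bars are standard errors) for histone genes that were tested, grouped by family, with replication-dependent genes at left and variants at right. Filled points passed an adjusted p of 0.05, colours give the annotated coding transcripts, and the dashed line is the median of all genes tested at −0.11: H4C3 and H4C2 lie farthest right, and H2BC4 and MACROH2A2 farthest left.

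Read by overlap, both pladienolide B libraries lay above both DMSO libraries in 46 of the 57 replication-dependent genes and below in 3, against 39.7% and 42.8% of all genes. The families differed in how many of their members rose. Of the H4 genes 8 of 11 rose and 0 fell, with a median log2 fold change of 2.15, and of the H2B genes 13 of 17 rose and 1 fell, with a median of 1.19. Of the H2A genes 10 of 15 rose and 1 fell, with a median of 1.16, and of the replication-dependent H1 genes 3 of 4 rose and 0 fell, with a median of 1.36. Of the H3 genes 3 of 9 tested rose and 0 fell, with a median of 0.42 that turned to −0.45 under library-size scaling, while the other 4 family medians stayed above 0. The calls under that scaling were 6 that rose and 2 that fell for H4, 3 and 2 for H2B, 4 and 4 for H2A, 1 and 0 for H1, and 1 and 2 for H3. No test between the families was made.

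Among replication-dependent genes the largest rises were in genes that were barely detected without the drug. H4C3 had 3.05 and 2.34 CPM in pladienolide B, against 0.0325 and 0.17 CPM in DMSO, from 80 and 55 reads against 2 and 15. Its log2 fold change was 4.62 ± 0.71 (SE, edgeR adjusted p = 0.000677), with a range of 3.96 to 6.26 when each library was left out in turn. H4C2 had 2.06 and 2.21 CPM in pladienolide B, against 0.0812 and 0.0907 CPM in DMSO (log2 fold change 4.59 ± 0.55, edgeR adjusted p = 0.00018). Both genes encode histone H4, and neither had a library of one group within the range of the other. H3C1, a gene of histone H3.1, had 87 and 25 reads in pladienolide B, against 7 and 13 reads in DMSO, or 3.32 and 1.06 CPM against 0.114 and 0.147 CPM. Its log2 fold change was 4.04 ± 0.68 (edgeR adjusted p = 0.00108). H1-4, a linker histone, had 7.86 and 6.0 CPM in pladienolide B, against 0.617 and 0.419 CPM in DMSO (log2 fold change 3.75 ± 0.50, edgeR adjusted p = 0.000325). H2AC7 had 2.78 and 6.0 CPM in pladienolide B, against 0.244 and 0.669 CPM in DMSO, and its call (log2 fold change 3.23 ± 0.81, edgeR adjusted p = 0.00826) was lost without DMSO replicate 1. In each of these 5 genes both pladienolide B libraries lay above both DMSO libraries, as in 39.7% of all genes. The 5 were named for their rise in this comparison, so this adds no support. H2AC7 lies inside the RefSeq span of H3C4 on the same strand, so the counts of both are uncertain. H4C3 lies inside the GENCODE span of H2BC4 on the opposite strand, though outside the RefSeq span of H2BC4. It is not stated whether the counting used the strand.

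Some genes with more reads rose as well. H4C11 and H4C12, which have identical coding sequences, had log2 fold changes of 3.12 ± 0.32 and 2.83 ± 0.27, and H2AC15 one of 3.00 ± 0.29. H2AC8 lay at 39.6 and 34.2 CPM in pladienolide B, against 9.86 and 8.01 CPM in DMSO, from 607 to 1037 reads in each of the 4 libraries, with a log2 fold change of 2.05 ± 0.24 (edgeR adjusted p = 0.000172). Both pladienolide B libraries of each lay above both DMSO libraries. These 4 genes were chosen after their values were seen, so that adds no support.

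The remaining replication-dependent genes fill in the families. H4C5 lay at 27.3 and 19.5 CPM in pladienolide B, against 4.99 and 5.52 CPM in DMSO (log2 fold change 2.15 ± 0.26), and H4C9 at 3.74 and 3.15 CPM against 0.812 and 0.442 CPM (2.47 ± 0.41). Both rose without overlap of the groups, although H4C9 overlaps H2BC12 on the opposite strand. Of the 3 H4 genes with the highest TPM, H4C14 rose by 1.20 ± 0.40 and the others did not pass. H4C8 lay at 22.8 and 35.3 CPM in pladienolide B, against 33.0 and 29.2 CPM in DMSO, and H4C15 at 63.1 and 137 CPM against 64.2 and 43.6 CPM. In both of these the groups overlapped, and H4C14 and H4C15 have identical coding sequences. Among H3 genes H3C3 and H3C14 joined H3C1 in rising, by 2.15 ± 0.54 and 2.23 ± 0.61 on the log2 scale, whereas H3C4, the H3 gene with the most reads apart from H3C6, had a log2 fold change of −0.57 ± 0.23 (edgeR adjusted p = 0.0557). H3C4 lay at 9.38 and 8.94 CPM in pladienolide B, below the 14.9 and 12.3 CPM in DMSO. Its RefSeq span holds H2AC7 on the same strand, so its counts are uncertain. Of the linker histones H1-3 rose by 1.83 ± 0.60, but its pladienolide B libraries were at 2.29 and 7.36 CPM, against 1.82 and 0.895 CPM in DMSO. H1-6, known as the testis linker histone, was at 28 reads over both pladienolide B libraries, against 133 over both DMSO libraries (log2 fold change −0.60 ± 0.57). It lies inside the GENCODE span of H2BC4 on the same strand, though outside the RefSeq span, so its counts are uncertain. Among H2B genes H2BC14 had a log2 fold change of 2.88 ± 0.37, H2BC6 one of 2.3 ± 0.51 and H2BC11 one of 1.51 ± 0.24, all 3 called. H2BC5, an abundant one, lay at 98.5 and 156 CPM in pladienolide B, on both sides of the 119 and 114 CPM in DMSO. The 1q21 and 1q42 genes H2AC20 and H2AW rose least among those called, by 0.66 ± 0.24 and 0.57 ± 0.22, and both turned negative under library-size scaling (−0.21 and −0.29).

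H2BC4 and H2AC6, a back-to-back pair, were the only replication-dependent genes that fell under TMM scaling. H2BC4 lay at 7.21 and 6.60 CPM in pladienolide B, against 75.7 and 76.2 CPM in DMSO, an 11-fold lower level (log2 fold change −3.46 ± 0.20, edgeR adjusted p = 1.75e-05). H2AC6 lay at 14.6 and 18.8 CPM in pladienolide B, against 88.0 and 72.8 CPM in DMSO, a 4.81-fold lower level (log2 fold change −2.27 ± 0.22, edgeR adjusted p = 6.75e-05). The groups did not overlap for either gene, and both calls held under every alternative run. Both genes are among the 8 with a spliced coding transcript in GENCODE as well as an intron-free one, and the deposited counts do not say from which transcript the reads came. In RefSeq H2BC4 extends 10302 bases past its hairpin, whereas H2AC6 ends 6 bases past it. In GENCODE H2AC6 too runs on past the hairpin, to chr6:26139116. H2AC6 also overlaps another gene on its own strand, so its counts are uncertain. Of the other 10 pairs, 7 had both members rise and 3 had 1 member rise, where 37 of all 56 replication-dependent genes tested rose. As no other replication-dependent gene fell, opposite calls within another pair were not possible. A pair that rose in both members was H2BC8, with 38.9 and 34.0 CPM in pladienolide B against 16.3 and 16.1 CPM in DMSO, and H2AC8 described above.

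**Figure D2:**
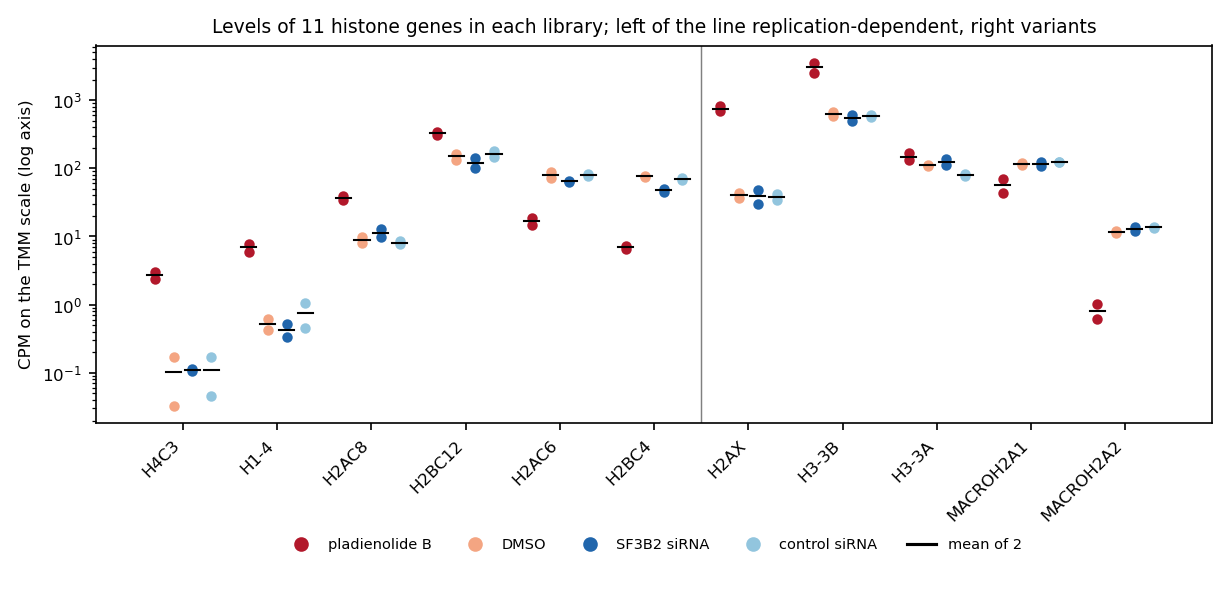
Level of selected histone genes in each library, in CPM on the TMM scale (y axis, log), with 1 point per library, black bars for the mean of 2 and colours for the 4 groups. H4C3, H1-4, H2AC8, H2AX and H3-3B lie higher, and H2AC6, H2BC4 and MACROH2A2 lower, in both pladienolide B libraries than in both DMSO libraries.

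The 6 replication-dependent genes with the highest control TPM, H2AC6 among them, all had log2 fold changes below the class median of 1.20. H2BC12 lay at 343 and 305 CPM in pladienolide B, against 164 and 134 CPM in DMSO (log2 fold change 1.12 ± 0.24, edgeR adjusted p = 0.00398). H2BC21 lay at 522 and 747 CPM in pladienolide B, against 334 and 332 CPM in DMSO (log2 fold change 0.93 ± 0.23, edgeR adjusted p = 0.00802). H1-2 lay at 177 and 388 CPM in pladienolide B, against 147 and 159 CPM in DMSO (log2 fold change 0.89 ± 0.34, edgeR adjusted p = 0.0453). In these 3 genes both pladienolide B libraries lay above both DMSO libraries, but the call of H1-2 was lost when any library other than pladienolide B replicate 1 was left out, and without pladienolide B replicate 2 its log2 fold change was 0.20. H2BC21 lost its call without either DMSO library. Under library-size scaling none of the 3 was called, and their log2 fold changes were 0.25, 0.07 and 0.03. H2AC18 lay at 111 and 96.0 CPM in pladienolide B, against 81.4 and 80.4 CPM in DMSO, and H2AC19 at 118 and 102 CPM against 86.4 and 85.7 CPM. The groups did not overlap, but the genes had log2 fold changes of only 0.36 ± 0.21 and 0.35 ± 0.21 (edgeR adjusted p = 0.157 and 0.162), which turned to −0.52 for each under library-size scaling, where both were called lower.

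Genes that were low in control cells had the higher log2 fold changes in pladienolide B. Across the 56 tested replication-dependent genes, which share libraries and sequence, the TPM in control siRNA libraries and the log2 fold change of pladienolide B over DMSO had a Spearman correlation of −0.58 and a Pearson correlation of −0.54 (on log2 TPM). Over all 13041 protein-coding genes tested the Spearman correlation was −0.002, and over 302 intron-free ones 0.06. Both sets include histone genes. Below 10 TPM 21 of 28 genes rose and 0 fell, with a median log2 fold change of 1.92. At 10 TPM or above 16 of 28 rose and 2 fell, with a median of 0.89. Of all genes tested 32.5% rose and 35.5% fell, and their shares at these levels were not computed. The filter on low counts keeps a gene with enough reads in 1 group alone, so a low gene can enter through the group where it is high. H4C3 had 135 reads over both pladienolide B libraries, against 17 in DMSO, 14 with SF3B2 siRNA and 13 with control siRNA. How far the filter shaped the correlation was not tested.

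**Figure D3:**
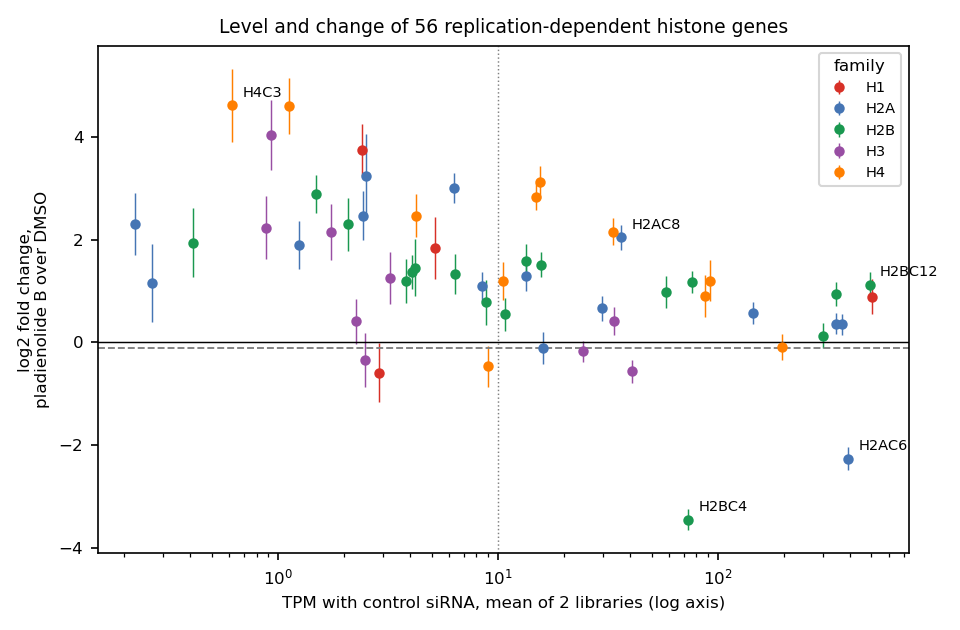
Log2 fold change of pladienolide B over DMSO (y axis, bars are standard errors) against the mean TPM of the control siRNA libraries (x axis, log) for 56 replication-dependent histone genes, coloured by family. The dashed line marks the median of all genes tested (−0.11) and the dotted line 10 TPM: points left of it have a median of 1.92 and points right of it one of 0.89, with H2BC4 and H2AC6 at the bottom.

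Exon structure set the histone genes in a wider group. Among all intron-free protein-coding genes tested, 64.6% rose and 5.30% fell in pladienolide B, with a median log2 fold change of 1.54. That set includes the intron-free histone genes. The intron-free histone genes, replication-dependent and variant together, had 38 of 53 that rose and 0 that fell, with a median of 1.33. Of all genes with only spliced coding transcripts 28.3% rose and 41.5% fell, with a median of −0.41. Histone genes with both forms had 4 of 9 that rose and 2 that fell (median 0.77), against 51.5% and 19.4% of all such genes, and spliced histone genes had 3 of 7 that rose and 2 that fell (median 0.43). Under library-size scaling 16 intron-free histone genes rose and 6 fell (median 0.45), where 135 of all 302 intron-free genes rose and 47 fell (median 0.67). Under that scaling 2 both-form histone genes rose and 4 fell (median −0.11), and 2 spliced ones rose and 3 fell (median −0.45). The median of both-form genes fell to 0.41 without pladienolide B replicate 1 and to 0.49 without replicate 2.

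Among the 13 variants 8 rose and 2 fell in pladienolide B, where 32.5% of all genes rose and 35.5% fell. Their median log2 fold change was 1.38. Without the variants that overlap a gene on their own strand, 6 of 11 rose and 2 fell, with a median of 0.94. Without pladienolide B replicate 2, 4 variants fell, and under library-size scaling 5 rose. H2AX, the H2A variant that is phosphorylated beside DNA breaks, rose most, at 812 and 680.1 CPM in pladienolide B, against 44.1 and 37.1 CPM in DMSO. The reads were 21282 and 15980 against 2715 and 3269, so the rise was also present in unscaled counts. Its log2 fold change was 4.2 ± 0.30 (edgeR adjusted p = 2.34e-05), and 3.33 under library-size scaling. H2AX thus rose 18.4-fold relative to the scaled libraries, with no overlap of the groups. It shares the intron-free form and the hairpin with the replication-dependent genes, and in RefSeq it extends 1024 bases past the hairpin.

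The genes of H3.3, whose protein is the same from both, moved apart. H3-3B lay at 2527 and 3537 CPM in pladienolide B, against 669 and 577 CPM in DMSO (log2 fold change 2.28 ± 0.27, edgeR adjusted p = 0.000166). H3-3A lay at 167 and 131 CPM in pladienolide B, against 113 and 109 CPM in DMSO, with a log2 fold change of 0.43 ± 0.21 (edgeR adjusted p = 0.101) that turned to −0.45 under library-size scaling, and that passed the threshold at 0.59 under RLE scaling and at 0.58 without pladienolide B replicate 2. The TPM ratio of H3-3B to H3-3A, which needs no scaling between libraries, was 6.05 and 10.8 in pladienolide B, against 2.39 and 2.13 in DMSO. Both genes have only spliced coding transcripts in GENCODE.

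Other variants that rose were H3-5, an intron-free H3.3-like gene, with 28 and 50 reads in pladienolide B against 12 and 13 in DMSO (log2 fold change 3.22 ± 0.47), and H2BE1, with 24 and 30 reads against 14 and 13 (log2 fold change 2.55 ± 0.42). H1-10, a linker histone variant, lay at 191 and 264 CPM in pladienolide B, against 77.8 and 73.0 CPM in DMSO (log2 fold change 1.59 ± 0.26, edgeR adjusted p = 0.000938). H2AJ, an H2A variant, lay at 127 and 65.9 CPM in pladienolide B, against 32.4 and 32.3 CPM in DMSO, and H2AZ1 at 166 and 95.7 CPM against 70.5 and 66.3 CPM. H2AJ rose by 1.58 ± 0.33, H3-2 by 1.38 ± 0.40 and H2AZ1 by 0.94 ± 0.29 on the log2 scale, and these 3 were not called under library-size scaling. The call of H2AZ1 was also lost without either DMSO library and without pladienolide B replicate 1, where its log2 fold change was 0.48. For these 6 genes too, the pladienolide B libraries lay above those of DMSO on the CPM scale. They are listed here because they rose, so this adds no support. H2AZ2, the other H2A.Z gene, lay at 43.7 and 46.3 CPM in pladienolide B, against 70.1 and 57.3 CPM in DMSO. It had a log2 fold change of −0.50 ± 0.20 (edgeR adjusted p = 0.0557), and was called at −1.37 under library-size scaling and at −0.55 without pladienolide B replicate 2. The TPM ratio of H2AZ1 to H2AZ2 was 14.3 and 8.07 in pladienolide B, against 3.85 and 4.37 in DMSO.

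Both macroH2A genes fell. MACROH2A2 had 16 and 24 reads in pladienolide B, against 733 and 1008 in DMSO, or 0.61 and 1.02 CPM against 11.9 and 11.4 CPM. This 14.4-fold lower level (log2 fold change −3.84 ± 0.31, edgeR adjusted p = 3.1e-05) was the largest fall of any histone gene. MACROH2A1 lay at 43.9 and 68.5 CPM in pladienolide B, against 113 and 120.5 CPM in DMSO (log2 fold change −1.06 ± 0.24, edgeR adjusted p = 0.00534). The TPM ratio of MACROH2A1 to MACROH2A2 was 66.7 and 50.6 in pladienolide B, against 8.68 and 9.21 in DMSO. Both have only spliced coding transcripts, with 9 exons in the canonical one, and both overlap a gene on the opposite strand (PITX1-AS1 for MACROH2A1 and AIFM2 for MACROH2A2).

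The replicates of a variant differed by a median of 0.64 on the log2 scale in pladienolide B and 0.15 in DMSO, and those of a replication-dependent gene by 0.29 and 0.27.

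Summed over the class, replication-dependent genes reached 1869 and 2397 CPM in pladienolide B, against 1386 and 1299 CPM in DMSO, with means of 2133 ± 373 and 1342 ± 61.7 CPM (SD, n = 2). The sum depends on the scale, since on TPM it was 2867 and 4214 in pladienolide B, on both sides of the 4138 and 4146 in DMSO. Variants summed to 4214 and 5565 CPM in pladienolide B, against 1744 and 1728 CPM in DMSO, and to 2509 and 3742 TPM against 2109 and 2250 TPM. H2B genes made up most of the replication-dependent CPM, at 1073 and 1322 CPM in pladienolide B against 739 and 702 CPM in DMSO. H3 genes summed to 51.8 and 45.8 CPM in pladienolide B and to 53.2 and 43.8 CPM in DMSO, so the groups overlapped.

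**Figure D4:**
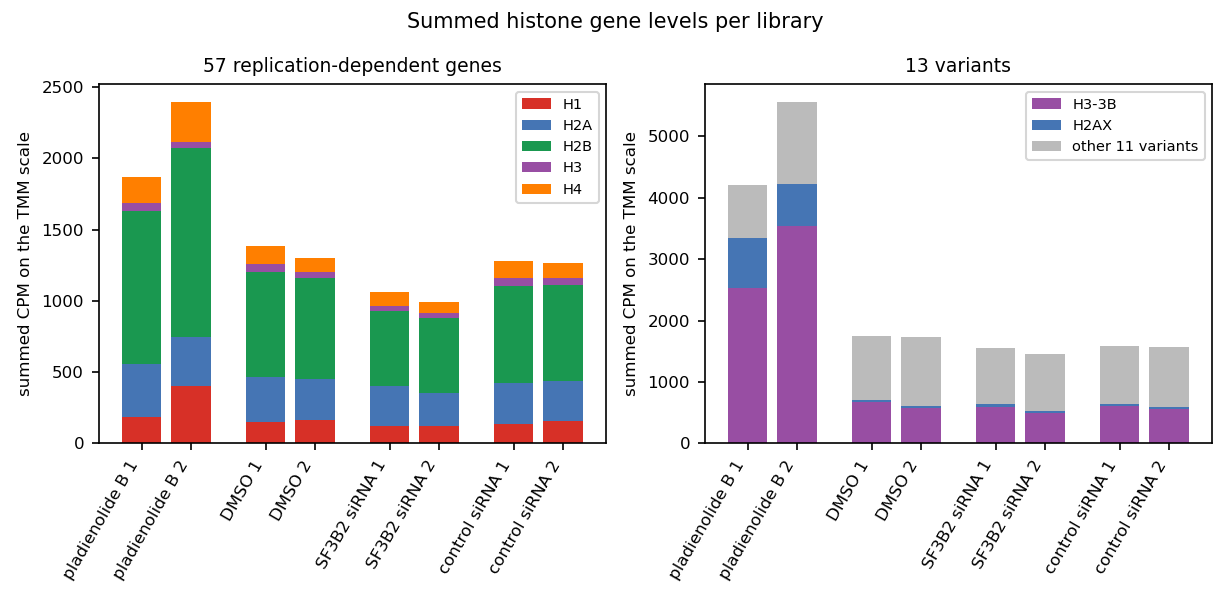
Summed CPM on the TMM scale (y axis) of replication-dependent genes by family (left) and of variants (right) in each library, with the groups along the x axis. The pladienolide B bars reach 1869 and 2397 CPM at left and 4214 and 5565 CPM at right, above the DMSO bars, and the SF3B2 siRNA bars at left (1065 and 995 CPM) lie below those of control siRNA (1278 and 1264 CPM).

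Genes that make, carry or use histones did not move together. Of 20 genes for the 3' end processing and decay of histone mRNA, 7 rose and 5 fell in pladienolide B, with a median log2 fold change of 0.34. Under library-size scaling 5 rose and 8 fell, and the median turned to −0.52. SLBP, which binds the hairpin, lay at 34.3 and 45.7 CPM in pladienolide B, against 31.1 and 30.1 CPM in DMSO (log2 fold change 0.39 ± 0.21, edgeR adjusted p = 0.133). DXO, a decapping enzyme, had the largest rise of the list, at 250.9 and 232 CPM in pladienolide B against 29.3 and 25.0 CPM in DMSO (log2 fold change 3.15 ± 0.23, edgeR adjusted p = 2.34e-05). SNRPB, a Sm protein of spliceosomal snRNPs and of U7, rose by 2.65 ± 0.23 on the log2 scale, and ZNF473, a zinc finger protein bound to U7, by 2.63 ± 0.21. NPAT, the activator of histone gene transcription, fell by 1.93 on the log2 scale, at 5.30 and 5.62 CPM in pladienolide B against 19.5 and 22 CPM in DMSO. CPSF3, the endonuclease of the cut, fell by 2.34.

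Of 30 histone chaperone and deposition genes 7 rose and 10 fell, with a median of −0.18, and under library-size scaling 5 rose and 20 fell (median −1.04). SPTY2D1, a histone chaperone, rose most, by 3.94 ± 0.26 on the log2 scale, followed by UBN1, which works with HIRA on H3.3, by 2.64 ± 0.20. SSRP1 of the FACT complex rose by 2.0 ± 0.22. DAXX, another chaperone of H3.3, rose by 1.34 ± 0.22, a call not made under library-size scaling, while its partner ATRX fell by 1.33. DEK fell most, by 3.08, at 15.8 and 14.9 CPM in pladienolide B against 129 and 129 CPM in DMSO, and RBBP7 fell by 1.79. Of 30 genes of S phase and DNA replication 4 rose and 7 fell, with a median of −0.42, whereas under library-size scaling 0 rose and 20 fell (median −1.29). CDT1, a licensing factor, rose by 2.07 ± 0.55 and ORC1, of the origin recognition complex, by 1.23 ± 0.31, calls that were not made under library-size scaling. RFC4, of the clamp loader, fell by 3.32 and MCM6, of the replicative helicase, by 2.12. SLBP, ZNF473, SSRP1, DAXX and ATRX were named after their values were seen. These shares, like those of the other lists, stand beside 32.5% of all genes that rose and 35.5% that fell, or 20.1% and 51.2% under library-size scaling.

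With SF3B2 siRNA no histone gene passed the threshold, as no gene did among the 16488 tested (0.00% called by edgeR). At an unadjusted p under 0.05 there were 638 genes (3.87%), and 5 of the 69 histone genes tested, and DESeq2 called 33 genes (0.220%), none of them a histone gene. Of the 56 replication-dependent genes 46 had a negative and 10 a positive log2 fold change, with a median of −0.30 against 0.01 for all genes. In 27 of the 57 both SF3B2 siRNA libraries lay below both control siRNA libraries, and in 3 above, against 18.9% and 19.7% of all genes. The variants had a median of −0.08, with 7 negative and 6 positive.

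Summed replication-dependent levels were 1065 and 995 CPM with SF3B2 siRNA, against 1278 and 1264 CPM with control siRNA, and 3033 and 3190 TPM against 3810 and 3932 TPM. The groups did not overlap on either scale. With 2 libraries a group the smallest two-sided p of an exact permutation test is 0.333, so none was run. H2BC4, which fell in pladienolide B, lay at 45.3 and 49.8 CPM with SF3B2 siRNA, against 71.7 and 66.3 CPM with control siRNA (log2 fold change −0.54 ± 0.18, edgeR adjusted p = 1.00). The genes nearest the threshold are given with their values. H2AC16 had 19 and 17 reads with SF3B2 siRNA, against 3 and 3 with control siRNA (log2 fold change 2.51 ± 0.61, edgeR adjusted p = 1.00). H2AC12 had 4 and 7 reads, against 12 and 17 (log2 fold change −1.38 ± 0.52). H3-3A, the variant with the smallest p, lay at 137 and 113 CPM with SF3B2 siRNA, against 81.7 and 76.0 CPM with control siRNA (log2 fold change 0.67 ± 0.21), so its groups did not overlap. H1-10 and H2AJ came next among variants, with log2 fold changes of 0.33 ± 0.26 and −0.21 ± 0.32. H1-10 lay at 78.9 and 53.9 CPM with SF3B2 siRNA, against 55.9 and 49.8 CPM with control siRNA, and H2AJ at 34.9 and 24.8 CPM against 36.8 and 32.6 CPM, with overlapping groups. The TPM ratio of H3-3B to H3-3A was 1.74 and 1.75 with SF3B2 siRNA, against 2.98 and 2.90 with control siRNA. H2AX lay at 47.3 and 30.0 CPM with SF3B2 siRNA, against 41.3 and 33.8 CPM with control siRNA, and MACROH2A2 at 13.8 and 11.9 CPM against 13.4 and 13.9 CPM. Their groups overlapped.

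The drug effect minus the siRNA effect, tested in the same fit, passed the threshold for 31 of 56 replication-dependent genes (29 positive, 2 negative) and 8 of 13 variants (6 positive, 2 negative), where 53.7% of all genes passed. For variants the number was 5 without DMSO replicate 2 or control siRNA replicate 1, and 4 without SF3B2 siRNA replicate 2. The doses, times and controls of the arms differ, so the size of this difference has no matched scale. Between the control groups, control siRNA against DMSO, no gene passed the threshold (0.00% called by edgeR and by DESeq2, 0.922% at an unadjusted edgeR p under 0.05), and the median log2 fold change was −0.02 for replication-dependent genes and −0.10 for variants. By the authors' deposited table, replication-dependent genes numbering 37 rose and 2 fell in pladienolide B, and 35 and 2 of these are among the calls given above. By the same values 31.3% of all 17010 genes rose and 36.0% fell. The authors' deposited table calls the same number of variants, 8 higher and 2 lower, all of them among the calls above, and no histone gene with SF3B2 siRNA.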

How the data were processed

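RNA-seq of PC3 cells was deposited as 1 table of read counts per gene and library, whole numbers that the authors had not normalized. The deposited table also holds TPM by the authors, used to compare levels between genes. The authors' own comparisons are in it as a signed fold score with p-values, with the test unnamed. Trimmomatic 0.38 and HISAT2 2.10 are listed in the submitters' processing notes beside edgeR and Bowtie2 2.3.5.1, on GRCh38, with no role for any, and no source states how strand was used. The table lists only genes with at least 1 read in every library.

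The test on counts was run in edgeR 4.0.16 under R 4.3.3 (quasi-likelihood F-test, robust, TMM, filterByExpr at a minimum count of 10, two-sided, all 8 libraries in 1 fit, 4 residual degrees of freedom), with Benjamini-Hochberg adjustment over 16488 genes and calls under 0.05. DESeq2 1.42.0 was an alternative. The script was tested on simulated data. Each log2 fold change carries its standard error. No pair of replicates was within sampling noise (chi-square per degree of freedom 55.8 to 308).

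The histone genes, the lists and the rule for naming genes were chosen with earlier results of these data known. Values per library are given for the 6 most abundant genes of each class, up to 5 with the largest rise and fall past the threshold in each class and comparison, the 3 with the smallest p where none passed, and main variants, with one exception that is not reported here by name but stays in counts, medians and sums. Genes were matched by symbol and position, 70 of 70, to RefSeq and GENCODE 44. Of the histone genes 25 share a coding sequence with another or overlap a gene on their strand, so their counts are uncertain.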

Additional observations from a re-analysis of the deposited data

How the results depend on the processing

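The drug comparison depends on scaling. Under library-size scaling 15 replication-dependent genes rose and 10 fell in pladienolide B, with a median log2 fold change of 0.34, and 5 variants rose, with a median of 0.51. The difference of the effects then held for 16 replication-dependent genes. The medians by exon structure were 0.45 for intron-free, −0.11 for both-form and −0.45 for spliced histone genes, and the log2 fold changes of H2AC18 and H2AC19 turned to −0.52 each. This scaling counts every gene relative to the library total. RLE scaling moved the both-form median to 0.94. Summed levels gave log2 ratios of −0.23 for replication-dependent genes, whose groups overlapped, and 0.52 for variants on TPM. The planned sum without the leading member is reported for replication-dependent genes alone. Without H1-2 its mean was 1850 CPM in pladienolide B against 1190 CPM in DMSO, in place of 2133 and 1342 CPM. On TPM it was 2996 against 3601, in place of 3540 and 4142, so neither mean changed direction. With H1-2 the TPM groups overlapped. Without H1-2 they lay at 2570 and 3422 TPM in pladienolide B, below the 3637 and 3565 TPM in DMSO. Without the 25 genes that may share reads, chosen after seeing the data, 23 replication-dependent genes rose and 1 (H2BC4) fell, from fewer genes counted. Of the 11 variants left, 6 rose and 2 fell, with a median of 0.94.

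Leaving out each library in turn, 19 to 35 replication-dependent genes rose and 2 to 3 fell, while 6 to 8 variants rose and 2 to 4 fell. The both-form median ranged from 0.41 to 0.79, and the difference of effects was called for 22 to 35 replication-dependent genes and 4 to 10 variants. The cause of these moves was not tested. The replicate numbers could not be shown to pair the libraries, since with 2 numbers the differences between replicates correlated at 0.54 in the siRNA arm and 0.14 in the drug arm. With the replicate block 36 replication-dependent genes rose and 3 fell in pladienolide B, 8 variants rose and 3 fell, and the siRNA comparison called 0; H2AZ2 was then called lower at −0.49. Exon numbers from a second annotation were not run. Genes with fewer than about 20 reads a library, such as H3C15, cannot show small changes at this depth.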
